A study of Mus musculus with 16 samples.

Results

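The cytosolic ribosomal protein genes were compared between livers of control mice and livers of a model of NASH (nonalcoholic steatohepatitis), in which fatty liver is joined by inflammation. The genes were chosen by name: every gene whose symbol in the platform annotation starts with Rpl or Rps and a digit, with Rpsa, Rplp0 and Rplp1 added, and without the S6 kinase genes, whose symbols start with Rps6k. This gave 69 of the 19505 genes tested, each with 1 probe set on the array. Of these, 55 encode proteins of the ribosome itself, 22 of the small subunit and 33 of the large subunit. A further 9 are paralogues, related genes such as Rpl22l1 that encode a variant of a subunit protein. Another 4 are other copies (Rpl31-ps12, Rpl32l, Rpl37rt and Rps23rg1), and Rps19bp1 encodes a protein that binds Rps19 and is no part of the ribosome. A list of 77 subunit genes was used for this grouping, and the other 22 on it, Rplp2, Rpl13a, Rps3 and Rps27a among them, were not analysed here.

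All 16 samples were liver biopsies of C57BL/6 mice, 8 labelled control and 8 labelled NASH model, each on its own 1-colour Affymetrix-type array. The labels give no way in which the model was induced, no diet, drug, age, sex, batch or scan date, and both groups carry the same strain. Samples are named here by the number in their labels, and the NASH model group holds samples 1a and 1b. The labels do not give the number of animals behind the samples, and p-values therefore rest on the spread between samples alone, which may in part be technical.

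Levels are log2 intensities after quantile normalization, so a difference of 1 is a 2-fold change. Genes are called higher or lower in the NASH model where the adjusted p of the limma fit over all genes is under 0.05, which held for 13.2% of all genes in the upward and 13.4% in the downward direction. The defining hepatocyte genes were bright in every sample. Their mean level over 15 genes was 11.35 to 11.39 in controls and 11.17 to 11.24 in the NASH model, and 5 of the 15 were lower in the model. All 11 measured macrophage markers were higher in the model, with a mean level of 4.85 to 5.66 in controls and 8.42 to 8.87 in the NASH model. Of the other lists, 7 of 8 stellate cell and myofibroblast markers and 4 of 6 bile duct cell markers were higher. So were 4 of 9 lymphocyte markers, 2 of 6 neutrophil markers and 1 of 6 endothelial markers, while 4 endothelial markers and 1 lymphocyte marker were lower. The endothelial count of higher genes and the lymphocyte count of lower genes are near the shares of all genes. Only 2 of the 9 lymphocyte and 1 of the 6 neutrophil markers lay above the array's background floor of 2.89 in every sample. In whole liver, a different share of cells of a type and a different amount of RNA per cell cannot be told apart.

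A ribosome is built of a small subunit, which reads the messenger RNA, and a large subunit, which joins the amino acids and lets the new protein out through its exit tunnel. Each subunit is a core of ribosomal RNA with one copy of most of its proteins, so cells make these proteins in matched amounts. Their messenger RNAs typically begin with a run of pyrimidines (C and T), the terminal oligopyrimidine tract, through which the kinase mTOR and the protein Larp1 control how fast they are translated. In the liver, ribosomes serve the heavy synthesis of secreted proteins such as albumin.

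To look for this tract, the start is shown of the 6 subunit genes with the largest rises and of Rpl7l1, a paralogue that fell. Each line gives 30 bases before and 20 bases from the RefSeq start in build GRCm38.p6, 5′ to 3′ on the gene's strand. Capitals mark the first run that begins with C and goes on with at least 4 further pyrimidines. The run had to start within 10 bases of the annotated start on either side. Where a gene had several annotated starts, one with such a run was preferred. All 6 subunit genes hold a run by this rule, and Rpl7l1 does not.
Rps15a (chr7:118116128-118116177, minus strand): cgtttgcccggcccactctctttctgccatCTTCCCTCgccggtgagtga
Rpl38 (chr11:114668550-114668599, plus strand): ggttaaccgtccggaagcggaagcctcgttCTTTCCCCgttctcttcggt
Rps7 (chr12:28635934-28635983, minus strand): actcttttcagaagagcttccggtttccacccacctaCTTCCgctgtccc
Rpl39 (chrX:37085203-37085252, minus strand): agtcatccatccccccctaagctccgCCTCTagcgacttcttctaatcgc
Rpl35 (chr2:39005112-39005161, minus strand): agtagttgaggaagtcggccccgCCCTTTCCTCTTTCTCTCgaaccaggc
Rps24 (chr14:24490648-24490697, plus strand): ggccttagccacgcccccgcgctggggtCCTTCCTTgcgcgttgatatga
Rpl7l1 (chr17:46782637-46782686, minus strand): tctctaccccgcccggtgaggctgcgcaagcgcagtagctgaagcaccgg

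The tract lies at the annotated start of Rps15a and Rpl38, 8 bases long in each. In Rpl35 it runs over 18 bases, from 7 before the start. The marked 5-base run of Rpl39 begins 4 bases before the annotated start, and that of Rps7 begins 7 bases after it. Neither marked run thus begins at the annotated start, but both count as a tract under the rule used here. Rpl39 also holds a longer run after the annotated start that meets the rule. It is not in capitals, because only the first run is marked. Of the 55 subunit genes, 43 were matched in the RefSeq promoter table, and 25 of these (58.1%) held such a tract, against 34.4% of all 27025 genes in the table. The median difference between the groups was 0.36 for the 25 genes with a tract and 0.38 for those without, so the medians differed by far less than the genes did among themselves. The match is to the annotated start, and a start placed some bases off would hide a tract. In windows of 300 bases (250 before and 50 from the start), the letters CCGGAAG or their complement CTTCCGG, the core of the site that ETS factors bind, stood in 19 of the 43 genes (44.2%) and in 9.93% of all genes. The median difference was again alike, 0.38 with them and 0.36 without. TATAAA on either strand was found in 5 of the 43 (11.6%) against 15.7% of all genes, and CACGTG, the letters of the E-box, in 4 (9.30%) against 8.09%. The median difference was 0.47 with TATAAA and 0.37 without, and 0.34 with CACGTG and 0.37 without. With so few genes holding either motif, these medians are uncertain.

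Ribosomal protein transcripts were higher in the NASH model liver, by a mostly small amount that differed between genes, in both subunits. Of the 69 genes, 53 (76.8%) were called higher and 2 (Rps4l and Rpl7l1) lower by limma, with p-values adjusted over all genes (Benjamini-Hochberg) and a threshold of 0.05, and 14 were not called. Over all genes the shares were 13.2% and 13.4%. The median difference over the 69 genes was 0.35 (1.27-fold), and over all genes it was -0.04. With the values as deposited, before quantile normalization, 54 were higher and 1 lower, against 14.5% and 11.6% of all genes.

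The rise lay mainly in the genes of the ribosome itself. Of the 55 subunit genes, 48 were called higher and 0 lower by limma. At an unadjusted p under 0.05 the counts were 52 and 1, against 16.7% of all genes higher and 19.5% lower. They were by the exact permutation test with adjustment over all genes 53 and 1, a test that called 12.8% of all genes higher. The lone gene below 0 was Rpl36, so 54 of 55 lay above 0, with a median of 0.36 (1.29-fold). Of the other 14 genes, 5 were higher (35.7%, against 13.2% of all genes) and 2 were lower (14.3%, near the share of all genes). The other 7 were not called, and the median of the 14 was -0.06. In 35 of the 55 subunit genes all 8 NASH model samples lay above all 8 controls, and over the 69 genes this held for 37. Of all genes, 5.65% separated in this direction and 3.89% in the other, in which none of the 69 did. As deposited, 35 of the 69 separated upward, against 6.22% of all genes.

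**Figure D1:**
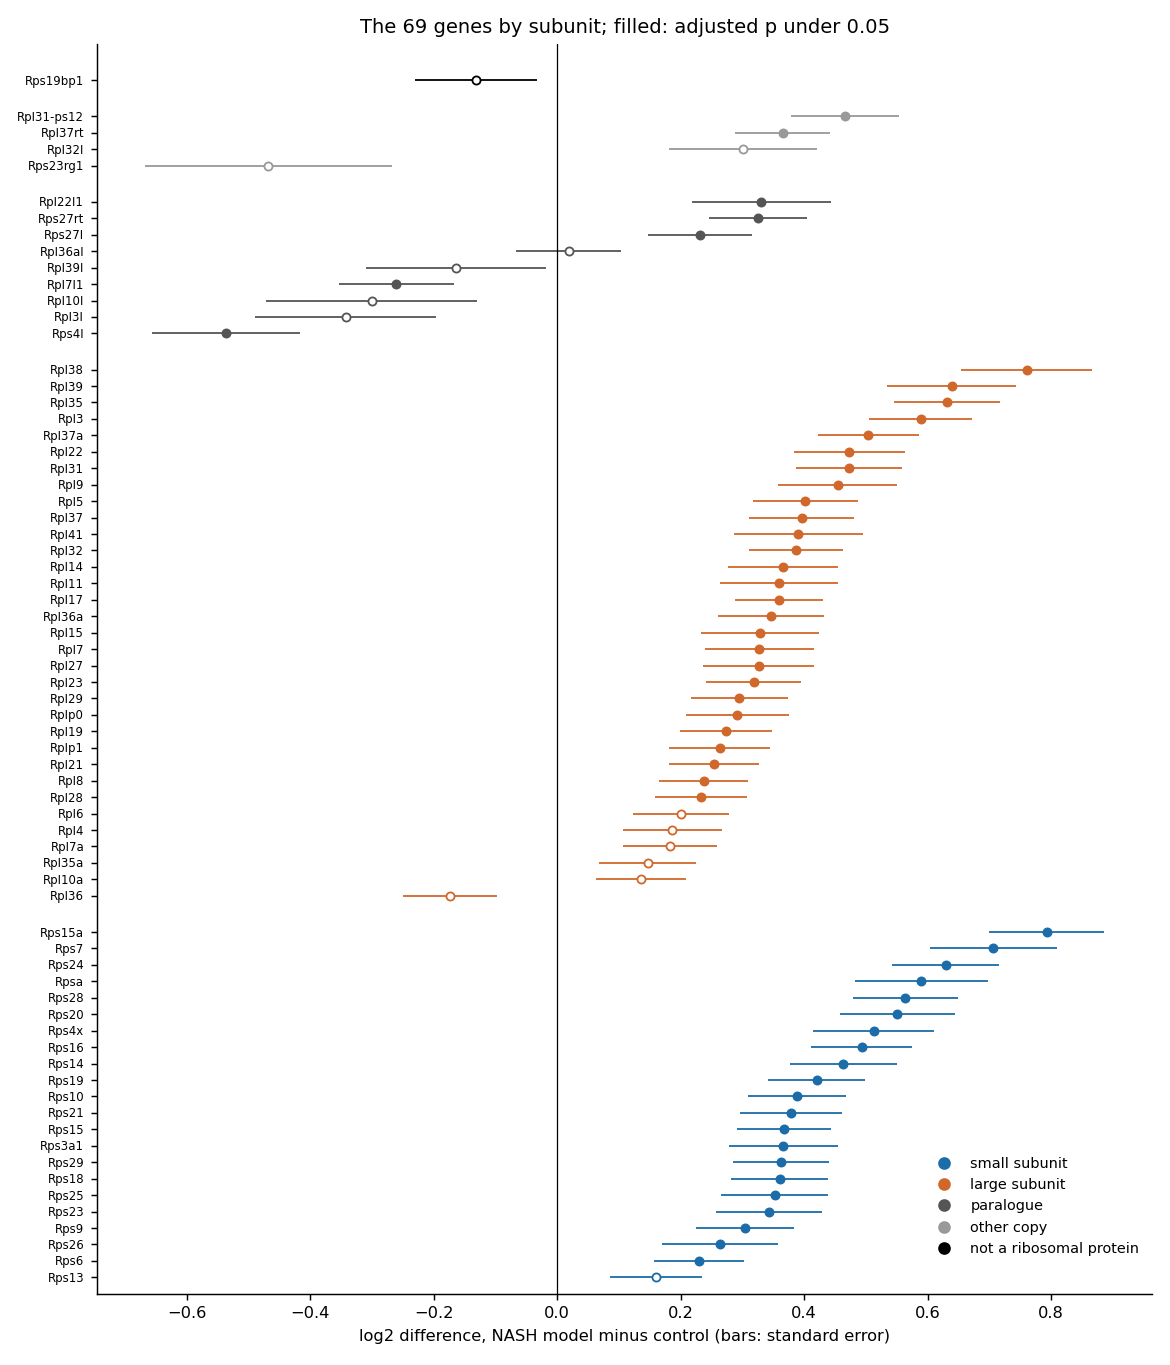
Log2 difference (NASH model minus control, 8 samples each) of every one of the 69 genes, with its standard error as a bar, grouped by subunit. Filled points passed an adjusted p under 0.05, and of the 55 subunit genes only Rpl36 lies left of 0, while the paralogues spread from -0.54 to 0.33.

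The sample values show the same shift. The mean level of the 55 subunit genes was 9.001 ± 0.071 (SD, n = 8) in controls, with a lowest of 8.89, a median of 9.01 and a highest of 9.10. In the NASH model it was 9.382 ± 0.099 (SD, n = 8), with 9.27, 9.38 and 9.59. The groups did not overlap, and the gap between the highest control and the lowest NASH model sample exceeded the SD of either group. As deposited the means were 9.01 ± 0.07 and 9.38 ± 0.09 (SD, n = 8 each). The small subunit genes went from 8.72 ± 0.07 to 9.16 ± 0.11 and the large subunit genes from 9.19 ± 0.07 to 9.53 ± 0.09 (SD, n = 8 each).

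NASH model sample 7 stood above the rest of its group and was the highest of its group in 40 of the 55 genes. Samples 4 and 5 were the lowest NASH model samples, in 16 and 17 genes. Among controls, sample 4 was highest in 19 genes, and samples 6 and 9 were lowest in 16 and 17. Without NASH model 7, 51 of the 69 genes were higher and 2 lower, with a median of 0.32. The subunit genes varied little between samples of a group: their median SD was 0.11 in controls and 0.14 in the NASH model, against 0.28 and 0.24 over all genes. Most genes are far dimmer, with a median level of 4.03 against 9.24 for the subunit genes. The proteasome subunit genes (0.12 and 0.14) and the hepatocyte genes (0.10 and 0.07) varied about as little or less, so low spread is not particular to the subunit genes.

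**Figure D2:**
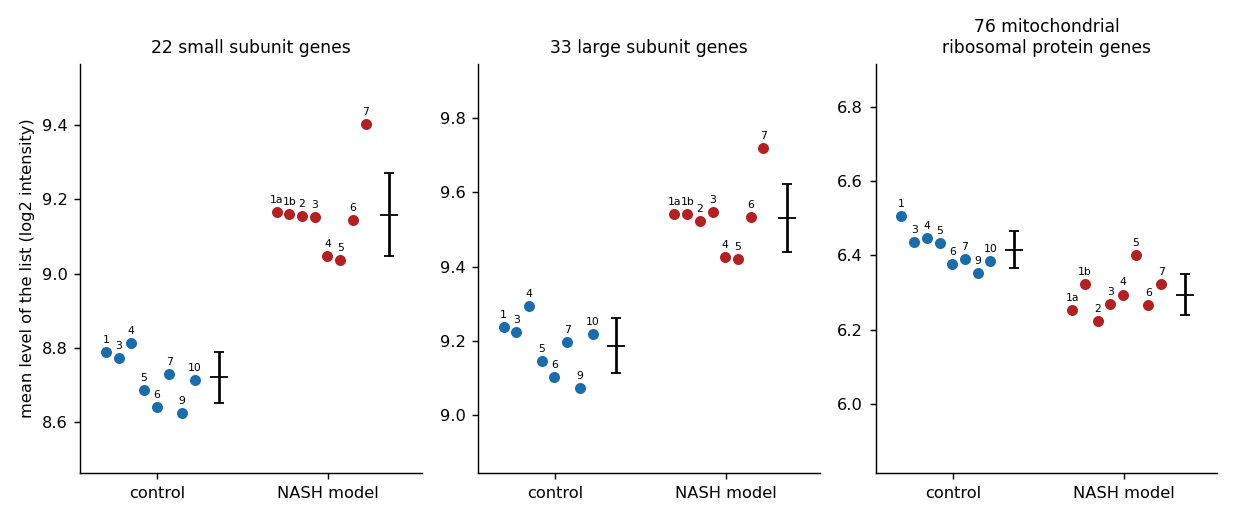
Mean level (log2 intensity) of the small subunit, large subunit and mitochondrial ribosomal protein genes in each sample, numbered as in the labels, with the group mean and SD (n = 8) beside the points. The vertical axes start at different levels but span the same range; in both cytosolic panels every NASH model sample lies above every control, and sample 7 is the highest.

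The subunit genes are bright on this array and vary little, so they were set beside other genes at their level. Outside the 69, 2933 genes lay within the level range of the 55, and of these 586 were higher and 789 (26.9%) lower, with a median of -0.05. In the class of mean levels from 9 to 10, which holds 22 subunit genes, the median was 0.37 for them and -0.11 for the 310 other genes. From 10 to 11 it was 0.33 for 12 subunit genes and -0.12 for 145 others. From 8 to 9 it was 0.39 for 17 and -0.04 for 697. Other bright genes thus leaned slightly down where the ribosomal protein genes leaned up.

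**Figure D3:**
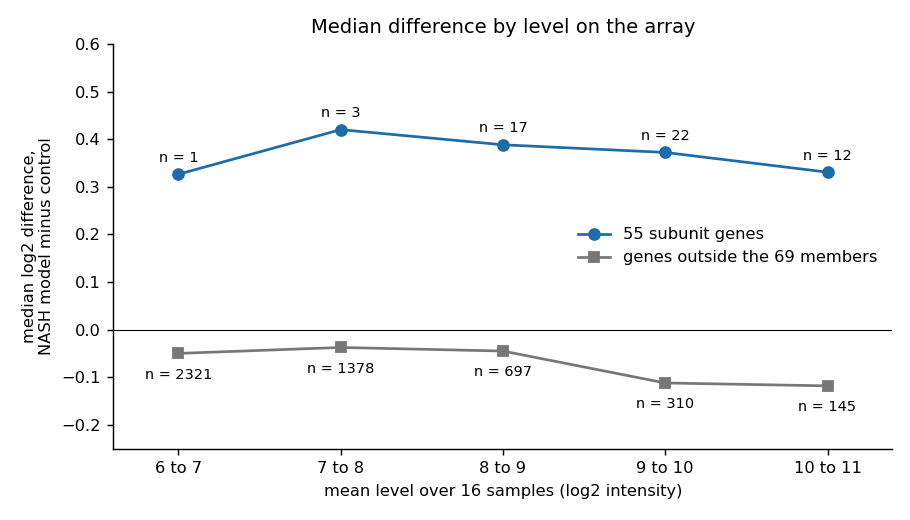
Median log2 difference (NASH model minus control) of the 55 subunit genes and of genes outside the 69, by class of mean log2 intensity over 16 samples, with the number of genes at each point. The subunit genes lie between 0.33 and 0.42 in every class and the other genes between -0.12 and -0.04.

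In the small subunit, 21 of 22 genes were higher, and the exception was Rps13 at 0.16 ± 0.08 (SE). The median was 0.38 (1.30-fold), and 18 of the 22 separated without overlap. Rps15a had the largest rise of all 69. Its level was 7.10 at lowest, 7.21 at the median and 7.49 at highest in controls, and 7.87, 8.03 and 8.38 in the NASH model. The groups lay apart, and the difference was 0.79 ± 0.09 (SE), 1.73-fold (limma adjusted p = 2.4e-06). Rps7, which takes part in processing the small subunit's RNA, had 9.22, 9.28 and 9.40 in controls and 9.65, 9.99 and 10.49 in the NASH model. Its controls were tight and its NASH model samples wide, with SDs of 0.07 and 0.26, and the difference was 0.71 ± 0.10, 1.63-fold (limma adjusted p = 2.7e-05). Rps24 had 8.94, 9.10 and 9.18 in controls and 9.49, 9.68 and 10.02 in the NASH model, a difference of 0.63 ± 0.09 (limma adjusted p = 1.4e-05) with no overlap.

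Rpsa, known also as a laminin receptor, had 8.22, 8.56 and 8.90 in controls and 8.96, 9.09 and 9.56 in the NASH model. The ranges came close without touching, and the rise was 0.59 ± 0.11, 1.51-fold (limma adjusted p = 0.00032). Rps28 rose by 0.56 ± 0.09 and Rps20 by 0.55 ± 0.09, again with no overlap. Rps6, the protein that S6 kinase phosphorylates when mTOR is active, was among the smaller changes of the subunit. It had 9.37, 9.55 and 9.63 in controls and 9.65, 9.79 and 9.86 in the NASH model. Its ranges just separated, and the rise was 0.23 ± 0.07 (limma adjusted p = 0.024), a call lost when arrays were centred on their medians. Rps23, at the decoding centre, rose by 0.34 ± 0.09 and, with Rps15, made both measured genes of the messenger RNA channel higher. Rps26 rose by 0.26 ± 0.09 (limma adjusted p = 0.044) on a thin margin: the call was lost as deposited, with median centring, and in 12 of the 16 fits that left out 1 sample (controls 5, 6, 7, 9 and 10, NASH model 1b and 2 to 7 in turn), where the adjusted p ran from 0.051 to 0.091.

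In the large subunit, 27 of 33 genes were higher and the median was 0.33 (1.26-fold), with 17 of the 33 free of overlap. Rpl38, whose loss in mice disturbs the patterning of the skeleton, led. It had 8.45, 9.01 and 9.22 in controls and 9.53, 9.72 and 9.93 in the NASH model. One control lay well below the others, the groups did not overlap, and the difference was 0.76 ± 0.11, 1.69-fold (limma adjusted p = 1.7e-05). Rpl39, a small protein of the exit tunnel, had 7.72, 8.02 and 8.32 in controls and 8.30, 8.65 and 8.89 in the NASH model. Its ranges overlapped slightly, and the difference was 0.64 ± 0.11, 1.56-fold (limma adjusted p = 0.00011). Rpl35, at the rim of the tunnel, had 9.39, 9.48 and 9.68 in controls and 9.94, 10.15 and 10.41 in the NASH model, a rise of 0.63 ± 0.09 (limma adjusted p = 1.2e-05) with no overlap. Rpl3, next to the site where amino acids are joined, had 8.47, 8.78 and 8.92 in controls and 9.18, 9.39 and 9.46 in the NASH model. It rose by 0.59 ± 0.08 (limma adjusted p = 2.0e-05), and its groups lay apart.

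**Figure D4:**
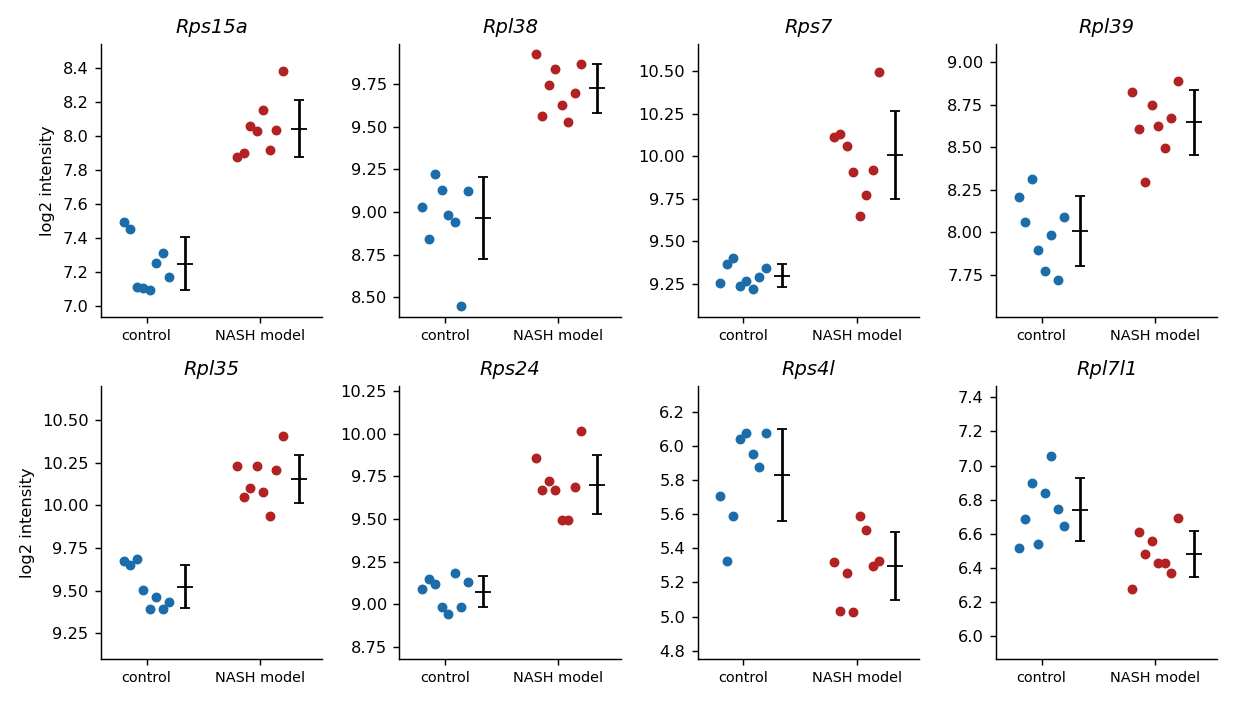
Level (log2 intensity) of the 6 genes with the largest rises and the 2 genes that fell, 1 point per sample, with the group mean and SD (n = 8) beside them. Every panel spans the same range; the groups separate in 5 of the 6 that rose, nearly so in Rpl39, and overlap in Rps4l and Rpl7l1.

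Groups of proteins with a shared role moved with their subunit. Of 7 measured exit tunnel genes, 6 were higher, with a median of 0.47, and Rpl4 was not called at 0.19 ± 0.08. The stalk recruits the elongation factors: its base protein Rplp0 rose by 0.29 ± 0.08 (limma adjusted p = 0.013) and Rplp1 by 0.26 ± 0.08 (limma adjusted p = 0.021). The ranges of Rplp0 overlapped, 8.79 to 9.22 in controls and 9.12 to 9.46 in the NASH model. Those of Rplp1 did not, 10.56 to 10.77 and 10.80 to 11.22. Both calls were lost with median centring, at 0.17 and 0.19 (limma adjusted p = 0.12 and 0.064). Rpl5 and Rpl11 bind the 5S ribosomal RNA and, when free, the p53 regulator Mdm2. Rpl5 rose by 0.40 ± 0.09 with no overlap and Rpl11 by 0.36 ± 0.10 with overlap (limma adjusted p = 0.0014 and 0.008). Of 9 measured genes whose loss of a copy causes Diamond-Blackfan anaemia, 8 were higher, with a median of 0.39. Rps19, the one mutated most often, rose by 0.42 ± 0.08 (limma adjusted p = 0.0004), and Rpl35a was not called at 0.15 ± 0.08 (limma adjusted p = 0.19). Rpl27 (0.33 ± 0.09) and Rpl23 (0.32 ± 0.08) rose by close to the subunit's median.

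The 6 large subunit genes that were not called were Rpl36, Rpl10a, Rpl35a, Rpl7a, Rpl4 and Rpl6. All but Rpl36 lay above 0, from 0.14 to 0.20, and Rpl4 and Rpl6 passed with the values as deposited (limma adjusted p = 0.045 and 0.036). Rpl36 had 8.22, 8.30 and 8.53 in controls and 8.05, 8.11 and 8.29 in the NASH model, a difference of -0.17 ± 0.08 (limma adjusted p = 0.11). Its NASH model samples lay toward the low end of the controls, and it was called lower in 4 alternatives: the exact permutation test, median centring, trend and robust options, and a fit without the dimmest 40% of genes. Rpl28 rose by 0.23 ± 0.07 (limma adjusted p = 0.025). Its call was lost with median centring and, narrowly, without NASH model 7, at 0.20 (limma adjusted p = 0.051). Rpl36 and Rpl28 were picked out after their values were seen, as were the other genes of this paragraph except Rpl35a.

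Of the 9 paralogues, 3 were higher (33.3%), 2 were lower (22.2%) and 4 were not called, against 13.2% higher and 13.4% lower of all genes. Rps4l, a copy related to the X-linked Rps4x, had 5.32, 5.91 and 6.08 in controls and 5.02, 5.31 and 5.59 in the NASH model. The ranges overlapped, and it fell by 0.54 on the log2 scale (SE 0.12, limma adjusted p = 0.002), a call lost with spike-in centring (adjusted p = 0.14). Rpl7l1, a paralogue of Rpl7 that acts in assembly of the large subunit, had 6.52, 6.72 and 7.05 in controls and 6.28, 6.46 and 6.69 in the NASH model. It fell by 0.26 (SE 0.09, limma adjusted p = 0.045) with overlap. That call was lost in 11 of the 16 fits that left out 1 sample (controls 3, 4, 6, 7 and 9, NASH model 1a and 2 to 6 in turn), where the adjusted p ran from 0.054 to 0.092, and as deposited, with loess and with spike-in centring. Rpl36al, which encodes nearly the same protein as Rpl36a, stayed at 8.63 ± 0.15 and 8.65 ± 0.12 (SD, n = 8 each), a difference of 0.02 ± 0.09 (SE).

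Rpl22l1, Rps27l and Rps27rt went with the subunit genes. Rps27rt, a near copy of Rps27, rose by 0.33 ± 0.08 (limma adjusted p = 0.0043) with no overlap. Rpl22l1, the paralogue that can replace Rpl22, rose by 0.33 ± 0.11 (limma adjusted p = 0.035). Its call was lost in 10 leave-one-out fits (controls 4, 7, 9 and 10, NASH model 1a, 1b, 3, 4, 6 and 7), at an adjusted p of 0.05 to 0.073. Rps27l, a p53 target, rose by 0.23 ± 0.08 (limma adjusted p = 0.048), and its call was lost in 11 of them (controls 3, 4, 6, 7 and 9, NASH model 1a, 1b, 2, 3, 5 and 6), at 0.06 to 0.097, and as deposited and with median centring. Rps19bp1 was not called, at -0.13 ± 0.10. Rpl10l and Rpl3l, known from testis and from striated muscle, differed by -0.30 ± 0.17 and -0.34 ± 0.15 and were not called. Rpl3l and Rpl39l lay around or under the array's background floor of 2.89, and the other 67 genes were above it in every sample.

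The difference between a subunit gene and its relative was tested within arrays, in a comparison chosen after the values were seen. The relative minus the subunit gene was computed in each sample and the groups were compared by an exact two-sided permutation test, adjusted over 8 pairs. It shifted by -1.05 ± 0.15 (SE) for Rps4l against Rps4x, by -0.59 ± 0.08 for Rpl7l1 against Rpl7 and by -0.33 ± 0.05 for Rpl36al against Rpl36a. In each of these 3 pairs all 8 NASH model samples lay below the lowest control, and the exact p was 0.00016, the smallest these samples can give (adjusted p = 0.00041). Each shift includes the rise of the subunit gene itself, 0.51 for Rps4x, 0.33 for Rpl7 and 0.35 for Rpl36a. The test therefore does not by itself show a change of the relative, and Rpl36al stayed level at 0.02. Rps23rg1, a gene derived from a copy of Rps23, differed from Rps23 by -0.81 ± 0.24 (exact permutation adjusted p = 0.011), and was itself not called at -0.47 ± 0.20. For Rpl22l1 against Rpl22 the shift was -0.14 ± 0.10 (exact permutation adjusted p = 0.26). Rpl31-ps12 (-0.01 ± 0.09), Rpl32l (-0.09 ± 0.12) and Rpl37rt (-0.03 ± 0.04) moved by less than their error against their subunit genes. These 3, like Rps27rt, are close copies whose probes may read the subunit gene's transcript as well, so their values are uncertain.

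Other lists of the translation machinery had medians near 0. Of 17 elongation factors and related genes, 6 were higher (35.3%) and 2 lower (11.8%), with a median of 0.08. Over all genes the shares were 13.2% and 13.4%, so more of this list was higher than of all genes. As deposited, 5 of the 17 were higher and 2 lower, against 14.5% and 11.6% of all genes. The higher ones included Naca (0.33 ± 0.08) and Btf3 (0.26 ± 0.08), which form the complex that guards the new chain at the exit tunnel, and Eef1d (0.29 ± 0.09). All 3 lost the call with median centring (limma adjusted p = 0.057, 0.12 and 0.1 in that order). The other higher genes were Eef1a1 (0.20 ± 0.07), Eef1b2 (0.25 ± 0.07) and Tpt1 (0.26 ± 0.07). Their groups did not overlap (limma adjusted p = 0.038, 0.0091 and 0.0094 in that order). The termination factor gene Gspt1 (-0.27 ± 0.09) and Eef1e1 (-0.27 ± 0.09) were called lower, but not with spike-in centring, at -0.16 and -0.12 (limma adjusted p = 0.29 and 0.53). Gspt1 also lost the call without control 1 or 7 or NASH model 1a (limma adjusted p = 0.052 to 0.054), and Eef1e1 without control 7 or 9 or NASH model 1b, 2, 4 or 6 (0.051 to 0.056).

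Of 29 initiation factors, 4 were higher (13.8%) and 3 lower (10.3%), near the shares of all genes, with a median of 0.02. Eif6, which keeps new large subunits from joining small ones, rose by 0.74 ± 0.11, and the helicase gene Eif4a1 by 0.56 ± 0.08 (limma adjusted p = 2.6e-05 and 2.3e-05). Eif3k rose by 0.39 ± 0.09. Eif2b1 (-0.57 ± 0.10) was lower. The cap-binding protein gene Eif4e (-0.29 ± 0.10) and Eif2s3x (-0.24 ± 0.09) were called lower on thin margins. Eif4e lost the call as deposited, with loess and with spike-in centring, and in 10 fits without 1 sample (controls 1, 3, 5, 7 and 9, NASH model 1a, 1b, 4, 5 and 6), where the limma adjusted p ran from 0.051 to 0.087. Eif2s3x lost it with loess and spike-in centring and in 11 such fits (controls 1, 4, 5, 6, 7 and 9, NASH model 1a, 1b, 3, 4 and 6), at 0.051 to 0.086. Fau, which encodes the small subunit protein eS30 fused to a ubiquitin-like protein and lies outside the naming rule, rose by 0.26 ± 0.07 (limma adjusted p = 0.012), a call lost with median centring (limma adjusted p = 0.17).

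Of 82 ribosome assembly genes, 11 were higher (13.4%) and 6 lower (7.32%), at or under the shares of all genes, with a median of 0.04. Pes1, of the complex that matures the large subunit, rose by 0.63 ± 0.10, Taf1a, of the factor that starts ribosomal RNA transcription, by 0.82 ± 0.21, and the kinase gene Riok1 by 0.61 ± 0.14. Nop16 (-0.43 ± 0.10) and Emg1 (-0.40 ± 0.09) were called lower, except with spike-in centring. Utp14a (-0.32 ± 0.11) was called lower in the main scaling and in none of the 4 others (-0.18 as deposited, limma adjusted p = 0.28). It also lost the call in 10 fits without 1 sample (controls 1, 3, 6, 7 and 10, NASH model 1a, 1b, 3, 5 and 6), at 0.051 to 0.085. Of 18 genes of mTOR and Myc control, 5 were higher (27.8%) and 4 lower (22.2%), against 13.2% and 13.4% of all genes. Their median level was 6.58. Of genes outside the cytosolic ribosomal protein list at levels from 6 to 7, 18.4% were higher and 23.0% lower. Larp1, which binds the tract shown above, fell by 0.54 (SE 0.09, limma adjusted p = 7.6e-05). Of the 2 translation repressor genes named here, Eif4ebp1 rose by 0.55 ± 0.10 and Eif4ebp2 fell by 0.52 (SE 0.11). Sesn1, an mTOR inhibitor, rose by 0.63 ± 0.14. Myc, which drives ribosome production, rose by 1.23 ± 0.38 (limma adjusted p = 0.02), a call the exact permutation test did not make (adjusted p = 0.057). Of the 6 S6 kinase genes, 1 (16.7%) was called lower by limma, Rps6kb2 (-0.43), and 0 higher, against 13.4% and 13.2% of all genes. At an unadjusted p under 0.05, 1 was higher (16.7% of all genes), and by the exact permutation test 0 were (12.8% of all genes). As deposited 0 were lower and 1 was higher, against 11.6% and 14.5% of all genes. With 6 genes, these counts do not stand out from the shares of all genes. Only 3 of the 6 lay above the background floor in every sample. Rps6kb2 was at -0.29 as deposited and -0.15 with spike-in centring (limma adjusted p = 0.11 and 0.56).

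The ribosome of the mitochondrion is built from other genes. Of 76 mitochondrial ribosomal protein genes, 3 were higher and 17 (22.4%) lower, against 13.4% of all genes lower, with a median of -0.12, and 20 lay above 0. Their median level was 6.23. Of genes outside the cytosolic list at levels from 6 to 7, 23.0% were lower and 18.4% higher. The share of lower mitochondrial genes was thus near that of genes in this class, and the share of higher ones (3.95%) was under it. The mitochondrial counts depended on the scaling. As deposited 2 were higher and 10 lower, with a median of -0.06, when 11.6% of all genes were lower. With median centring 2 were higher and 23 lower (18.7% of all genes lower), and with spike-in centring 6 and 2 (4.99% of all genes lower). Their mean level was 6.42 ± 0.05 in controls and 6.29 ± 0.05 in the NASH model (SD, n = 8 each). The 39 proteasome subunit genes, another large complex made in matched amounts, had 2 higher (5.13%) and 3 lower (7.69%) and a median of -0.04. Both shares were under those of all genes.

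**Figure D5:**
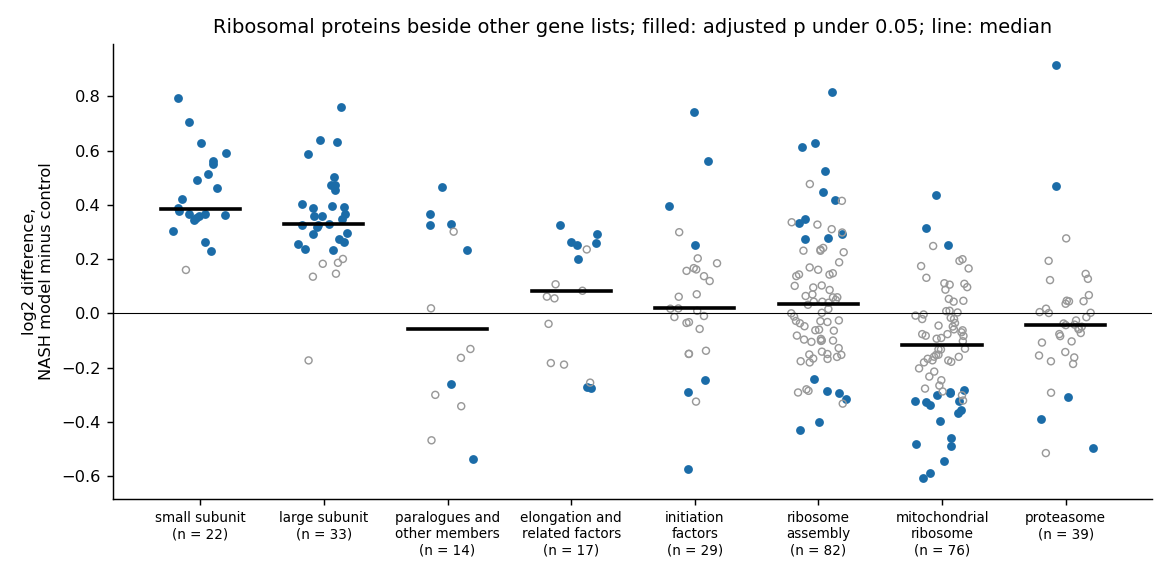
Log2 difference (NASH model minus control) of each gene in the small and large subunit, the other 14 members and 5 further lists, with the list median as a line and filled points for adjusted p under 0.05. The subunit medians are 0.38 and 0.33, and those of the other lists lie between -0.12 and 0.08.

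The macrophage markers rose with a median of 2.77 in the same samples in which the subunit genes rose by 0.36. Alb, which encodes serum albumin, was at 12.62 in controls and 12.64 in the NASH model, close to the highest value on the arrays, 12.74. Over all 15 hepatocyte genes the mean was 11.37 in controls and 11.21 in the NASH model. Of the 15, 5 (33.3%) were lower and 0 higher, against 13.4% and 13.2% of all genes. The median level of the 15 was 11.67, above the level classes compared earlier. In the brightest class, from 10 to 11, 35.2% of genes outside the cytosolic ribosomal protein list were lower and 18.6% higher. The share of lower hepatocyte genes was thus near that of other bright genes. The part of added immune and connective tissue cells in the rise of the ribosomal protein genes was not tested.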

How the data were processed

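The values used are the log2 probe set intensities that the authors deposited for 29129 probe sets, per the series' value table. How they were summarised from the probes is a step not given in the sources used here. Sample medians lay between 3.52 and 3.66, in an overall range of 0.62 to 12.7. The platform annotation gave 1 gene symbol for 19572 probe sets and none for 9557. Each of 19505 genes was represented by its probe set of highest mean over the 16 samples, and 55 genes had several, none of them a ribosomal protein gene.

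Values were quantile-normalized, which moved no value by more than 0.16, and the groups were compared in limma 3.58.1 under R 4.3.3 (lmFit and eBayes, two-sided, group as the only term, Benjamini-Hochberg over all genes, called at an adjusted p under 0.05). Errors of differences are standard errors of this fit. The code was tested on simulated data. The number of arrays limits the precision.

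The members and gene lists were chosen with earlier results of these data known. Named with values were the 10 largest called changes in each direction, paralogues and Rps19bp1 where brighter than the median gene, Rplp0, Rplp1, Rpsa, Rpl5, Rpl11 and Rps6, the 3 genes with the largest SD, the dimmest 3 and brightest 3 subunit genes, and up to 3 called genes in each direction per other list. Rps13, Rps15, Rps26, Rpl28, Rpl39l, Eef1a1, Eef1b2, Tpt1 and the close copies were named after their values were seen. The background floor is the 95th percentile of 1412 olfactory and vomeronasal receptor genes. Samples 1a and 1b of the NASH model differed as much as other pairs of their group (SD of their differences 0.39, against 0.34 to 0.47 in 27 other pairs) and were kept as separate samples. Sequences came from RefSeq promoters of GRCm38.p6, where 56 of the 69 genes matched. The array's own build was not stated.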

Additional observations from a re-analysis of the deposited data

Results flagged for a closer look

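In 5 of 66 groups of values one sample stood apart, its gap to the next sample, as a share of the group's range, being above Dixon's 95% limit for 8 samples. Chance gives about 1 in 20 groups such a sample. NASH model 7 was the highest of its group in the mean of the 55 subunit genes, at 9.59 with the next sample at 9.39 and the lowest at 9.27. It was also highest in the mean of the small subunit genes (9.40, next 9.17) and of the large subunit genes (9.72, next 9.55), which are parts of the same mean. For Rps19bp1, control 4 was lowest at 5.47, with the next at 5.76. For Rpl22l1, NASH model 2 was lowest at 5.44, with the next at 5.90.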

How the results depend on the processing

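The count of the 69 genes called higher, 53, was between 43 (arrays centred on their medians) and 58 (spike-in centring, exact permutation test) in 12 of 13 alternatives, and 50 to 53 with 1 sample left out. The exception was a replicate block, with 32 higher, 1 lower and a median of 0.34. The block gives same-numbered samples of the groups a shared term, but the numbers did not pair the samples: over 7 pairs the correlations of their deviations ran from -0.03 to 0.06, and in 1 of 7 a sample correlated best with its own number. The count called lower, 2, was 1 as deposited, 1 with loess, 1 with NASH model 1a and 1b averaged, 1 without both, 4 with median centring, 3 with trend and robust options, 3 by the exact permutation test, 3 without the dimmest 40% of genes and 0 with spike-in centring, and 1 to 2 with 1 sample left out. The cause of these changes was not tested. The median of 0.35 was 0.32 to 0.37 with 1 sample left out 0.26 with median centring and 0.48 with spike-in centring. Spike-in centring put the median of all genes at 0.10, median centring at -0.12 and the main scaling at -0.04. Relative to the median of all genes, the ribosomal protein median lay 0.39 higher in each of these 3 and 0.40 higher with loess. Spike-in and median centring move all genes of an array alike, so this gap was bound to be the same in both. The calls over all genes were 2577 higher and 2619 lower in the main scaling, 2355 and 3646 with median centring and 3630 and 973 with spike-in centring. Of the 53 higher genes, 49 kept the call in all 16 fits without 1 sample and 43 in all 4 other scalings. The 10 others lost it with median centring. Of the 54 named genes, no called gene changed sign, but 2 that were not called did: Rps19bp1 was at 0.10 with spike-in centring, and Rpl36al at -0.005 as deposited, -0.09 with median centring and below 0 in 4 of the fits without 1 sample. Genes near the background floor have compressed differences.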
